A study of Mus musculus with 4 samples.

Results

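The genes described here are markers of macrophages and other myeloid cells in mouse colonic mucosa: Csf1r, Adgre1, Cd68, Lyz2, C1qa, C1qb, C1qc, Cd14, Mrc1 and Cx3cr1. Members were found as every gene probe whose accession in the scanner files maps to one of these symbols in RefSeq. Of the 10 genes, 9 were matched, by 13 of the 41174 gene probes on the array (17305 symbols had a probe), and no probe was matched to Cd68, a lysosomal glycoprotein of phagocytes, so Cd68 has no value here. RNA from scraped colonic mucosa of C57BL/6 mice at 90 postnatal days (P90) was hybridised against RNA from mice at 30 postnatal days (P30), with no treatment named, on 4 two-colour arrays called a, b, e and k. Cy3 marked P90 RNA on arrays a, b and k, and on array e the dyes were exchanged. Each array is 1 pair of RNAs, so n = 4 throughout, and the labels name each RNA only by the age of an animal. A p-value given here thus reflects spread among 4 pairs, which may be technical in part. The mucosa was scraped off with a slide, so each RNA mixes epithelium with the cells beneath it.

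Resident macrophages are among the most abundant immune cells of the intestinal mucosa, where they clear dying cells and bacteria beneath the epithelium. They depend on signalling through the CSF1 receptor and, in the adult gut, are largely renewed from blood monocytes. The genes studied cover the growth factor receptor and surface identity of these cells, the complement recognition protein C1q that they secrete, and receptors for sugars, bacterial lipopolysaccharide and the chemokine fractalkine.

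Array b stood apart. Across all gene probes, its log2 P90/P30 correlated with that of array a at Pearson r = -0.303, of array e at -0.269 and of array k at -0.172, whereas a and e correlated at 0.582, a and k at 0.431, and e and k at 0.303. These are correlations across probes, which are not replicates. The labelled direction of array b was kept because the labels state the dyes of every array, and the members' ratios and the list medians are also given without that array. Between 55.6% and 69.3% of gene spots were well above background in the P90 channel and between 64.6% and 71.0% in the P30 channel. The lowest shares were those of the P90 channel on arrays a (55.6%) and k (57.3%). The mucosal scrape carried its epithelium in both ages: Krt8 and Lgals4, of the colonic epithelium list, were saturated in both channels on all 4 arrays. Their ratios are therefore not measurements of a change. The epithelium list medians on arrays b (0.33) and e (-0.16) lay at the values of these saturated spots. With array intensities, the number of arrays limits the precision.

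No member changed with age beyond the spread between the 4 arrays. Of the 13 member probes, 11 passed the filter on dim probes, and 0 of these 11 were past an adjusted p of 0.05 in the limma fit across 27065 probes, in which 0% of all probes were called (the lowest adjusted p of any probe was 0.584). Before adjustment, 0 of the 11 had p below 0.05, against 8.05% of all probes tested. Most of the 11 probes shared an arrangement over the arrays: 8 lay below 0 on arrays a, e and k and above 0 on array b. Of all probes tested, 20% had that arrangement. Taking 1 probe for each gene, the one of highest mean intensity, 8 of 9 members had it, against 19.1% of 20834 genes tested. In bulk tissue, a change in the number of macrophages and a change in RNA per macrophage could not be told apart.

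The median of the 11 member probes in log2 P90/P30 was -0.34, 0.70, -0.34 and -0.27 for arrays a, b, e and k. Over all 27065 probes tested the medians were -0.047, -0.0015, -0.015 and -0.023. The members' median thus lay under that of all probes for a, e and k, and over it for b. Of the 11 means over arrays, 9 were below 0 with a median of -0.30, and over all probes tested 54.4% were below 0 with a median of -0.020.

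**Figure D1:**
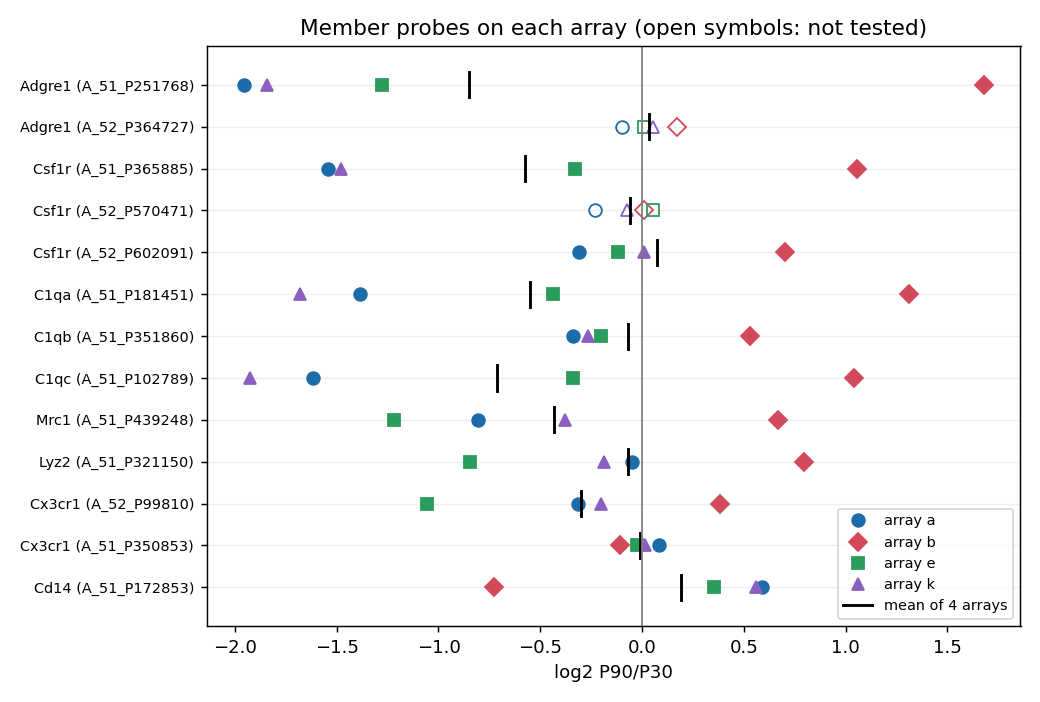
Log2 P90/P30 (x axis) of each of the 13 member probes on arrays a, b, e and k, with the mean of the 4 arrays as a black bar and the 2 probes that did not pass the filter as open symbols. Array b lies above 0 and the other arrays below it for the tested Adgre1 probe, C1qa, C1qb, C1qc, Mrc1 and Lyz2, and the reverse holds for Cd14.

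Adgre1 encodes F4/80, the adhesion receptor by which mouse macrophages are commonly identified. Its brighter probe (A_51_P251768) had normalized log2 intensities of 7.46, 8.98, 9.12 and 6.91 in the P90 RNAs of arrays a, b, e and k, against 9.42, 7.30, 10.40 and 8.76 in the P30 RNAs of the same arrays. The RNAs of highest level were thus P30 of arrays e and a, those of lowest level P90 of k and P30 of b, and the ages overlapped. Log2 P90/P30 of Adgre1 in the same array order was -1.96, 1.68, -1.28 and -1.84, with a mean of -0.85 ± 1.71 (SD, n = 4; limma adjusted p = 0.743; 95% interval from -2.39 to 0.69). Among all probes tested, its percentile was 1.39 for array a, 1.72 for e, 0.591 for k and 99.4 for b. The second probe of Adgre1 (A_52_P364727) was not well above background in either channel on any array and gives no fold.

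Csf1r, the receptor for CSF1 and IL-34 that macrophages need to survive, followed Adgre1 at its brightest probe. That probe (A_51_P365885) had levels of 7.46, 8.95, 9.11 and 7.24 in P90 RNAs on a, b, e and k, against 9.0025, 7.89, 9.44 and 8.72 in P30 RNAs. Its log2 P90/P30 was -1.54, 1.06, -0.33 and -1.48, a mean of -0.57 ± 1.22 (SD, n = 4; limma adjusted p = 0.764). The 3 probes of Csf1r differed in brightness. Probe A_52_P602091 was dimmer, with mean levels of 6.83 at P90 and 6.76 at P30, and averaged 0.071 ± 0.44. It had the sign of the brightest probe on a, b and e (-0.31, 0.70 and -0.12) and lay near 0 on k (0.012). The part of brightness in this difference was not tested. Probe A_52_P570471, well above background on 1 of 4 arrays in each channel, was not tested.

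C1q, the recognition protein of the classical complement pathway, is assembled from 3 chains encoded by C1qa, C1qb and C1qc, which adjoin one another on chromosome 4 in RefSeq (GRCm38.p6). Because these neighbouring genes are transcribed together in macrophages, the promoters held in the RefSeq promoter table are shown for C1qb and C1qc. Each run gives the 250 bases before the transcript start used in that table, 5′ to 3′ on the minus strand, at chr4:136886201-136886450 for C1qb and chr4:136892915-136893164 for C1qc. Capitals mark GGAA, the core bound by ETS-family factors such as the macrophage regulator PU.1, and the longer AGGAAGT, either of them also in reverse complement.
C1qb: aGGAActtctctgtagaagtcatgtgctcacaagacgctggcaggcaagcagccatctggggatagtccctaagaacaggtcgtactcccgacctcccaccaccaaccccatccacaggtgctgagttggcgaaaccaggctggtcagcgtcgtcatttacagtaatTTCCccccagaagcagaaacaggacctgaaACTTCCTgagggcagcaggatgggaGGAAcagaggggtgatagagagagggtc
C1qc: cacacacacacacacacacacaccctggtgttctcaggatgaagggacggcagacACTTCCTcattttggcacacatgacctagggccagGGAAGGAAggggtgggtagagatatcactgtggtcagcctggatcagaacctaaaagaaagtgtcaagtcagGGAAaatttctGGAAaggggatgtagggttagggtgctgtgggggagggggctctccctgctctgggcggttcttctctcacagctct
AGGAAGT occurred 1 time in each, 53 bases before the start in C1qb and 195 bases before it in C1qc, in both as the reverse complement. GGAA, which is part of AGGAAGT, occurred 4 times in C1qb and 5 times in C1qc. Of 32851 promoters of this length, 7.69% held AGGAAGT and 93.4% held GGAA on either strand. The promoters of Csf1r and Cd14 were left out of this count. Of the 6 members with a promoter searched, 4 held AGGAAGT (Lyz2, C1qb, C1qc and Mrc1) and all 6 held GGAA. A match of letters is a description and not a binding site.

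C1qa and C1qc had ratios of like size on every array. C1qa had levels of 7.75, 9.12, 8.96 and 7.51 in P90 RNAs on a, b, e and k, against 9.13, 7.80, 9.40 and 9.19 in P30 RNAs. The P30 RNAs of a, e and k and the P90 RNAs of b and e formed the upper values, and P90 of a and k with P30 of b the lower ones. Its log2 P90/P30 was -1.39, 1.31, -0.44 and -1.68 (mean -0.55 ± 1.35, SD, n = 4; limma adjusted p = 0.804). C1qc had levels of 7.96, 9.36, 10.59 and 7.85 in P90 RNAs, against 9.58, 8.32, 10.93 and 9.78 in P30 RNAs. Array e held the highest C1qc level of both ages. Its log2 P90/P30 was -1.62, 1.04, -0.34 and -1.93 (mean -0.71 ± 1.36; limma adjusted p = 0.729).

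C1qb had smaller ratios of the same signs. Its levels were 8.23, 8.59, 8.95 and 8.44 in P90 RNAs, against 8.56, 8.06, 9.16 and 8.71 in P30 RNAs, so that all 8 lay between 8.06 and 9.16. Log2 P90/P30 of C1qb was -0.34, 0.53, -0.20 and -0.27 (mean -0.069 ± 0.40, SD, n = 4; limma adjusted p = 0.953). Each chain has 1 probe on the array, and whether C1qb differs from the other chains was not tested.

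**Figure D2:**
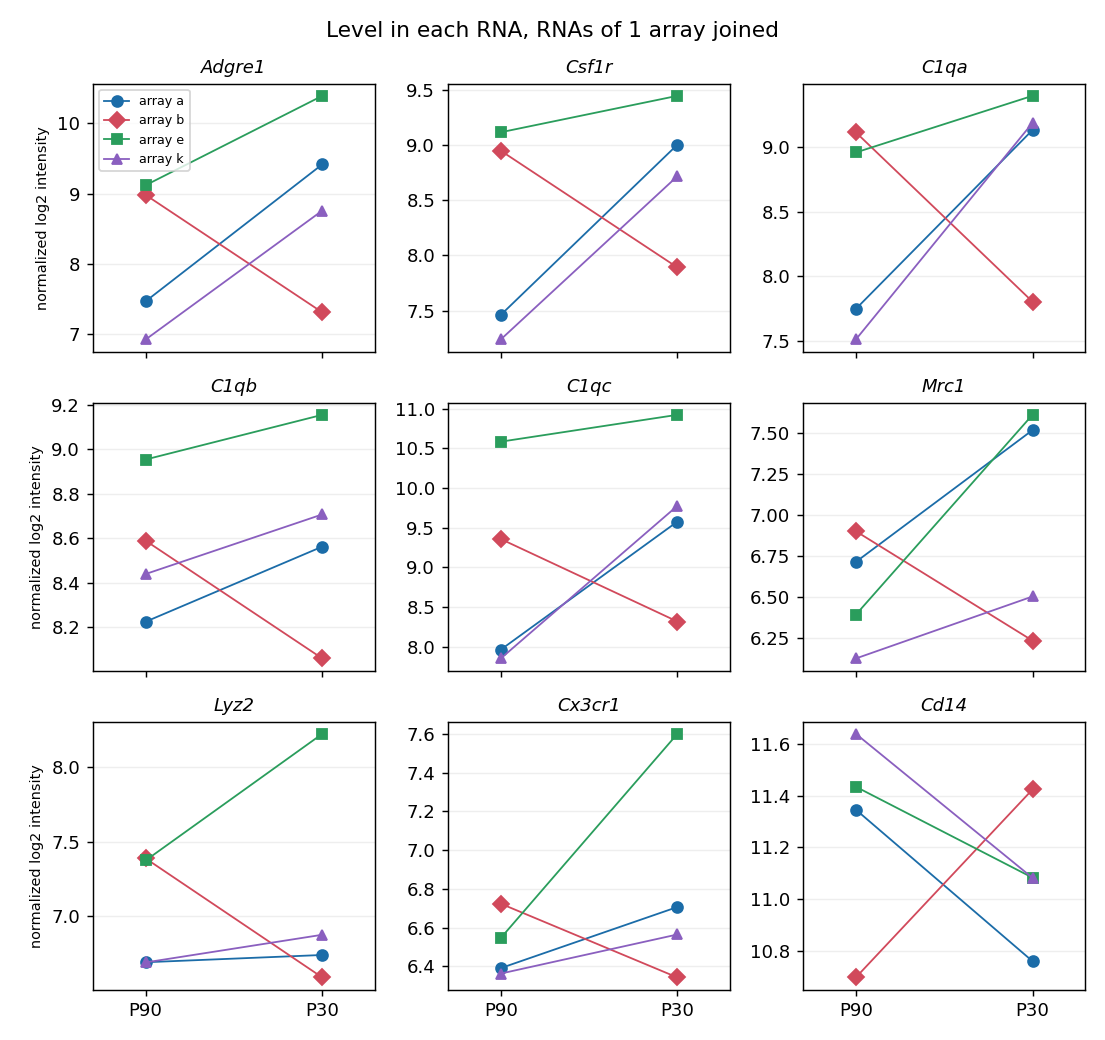
Normalized log2 intensity (y axis, scaled separately in each panel) of the 9 matched members in the P90 and P30 RNAs of each array, using the brightest probe of each gene, with the RNAs of 1 array joined by a line. For 8 members the line of array b runs opposite to those of a, e and k with P90 above P30, for Cd14 it runs with P90 below P30, and in every panel the levels of the ages overlap.

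Among the members with pattern-recognition or lysosomal roles, Mrc1 encodes the mannose receptor CD206. Mrc1 was dim, well above background on 2 of 4 arrays in the P90 channel and on 4 of 4 in the P30 channel. Its levels were 6.71, 6.90, 6.39 and 6.12 in P90 RNAs, against 7.52, 6.23, 7.61 and 6.50 in P30 RNAs. The lowest P30 value was that of array b, and the ages overlapped. Log2 P90/P30 was -0.80, 0.67, -1.22 and -0.38 (mean -0.43 ± 0.81, SD, n = 4; limma adjusted p = 0.736). The offset added to dim signals draws such ratios towards 0, and with a smaller offset of 10 Mrc1 was at -0.73. The authors' deposited log ratios gave Mrc1 a mean of -1.69 ± 2.48 with the labelled dyes. They carry no such offset, but their background removal and normalization differ too, and the part of each was not tested.

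Lyz2 encodes the lysozyme of macrophages and neutrophils. It had levels of 6.69, 7.39, 7.37 and 6.69 in P90 RNAs, against 6.74, 6.59, 8.22 and 6.88 in P30 RNAs. P30 of array e was the highest of the 8, and the others spanned less than 1 log2 unit. Log2 P90/P30 of Lyz2 was -0.049, 0.80, -0.85 and -0.18 (mean -0.071 ± 0.67, SD, n = 4; limma adjusted p = 0.970). Its near-identical paralog Lyz1, the lysozyme of Paneth cells, was at -0.76, 1.96, -0.33 and -1.24. A probe of one lysozyme may bind transcripts of the other, so their separate values are uncertain.

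Cx3cr1 is the fractalkine receptor of monocytes and intestinal macrophages. At its brighter probe (A_52_P99810), well above background on 2 of 4 arrays in the P90 channel, levels were 6.39, 6.72, 6.55 and 6.36 in P90 RNAs, against 6.71, 6.34, 7.60 and 6.56 in P30 RNAs. Apart from P30 of array e, all lay between 6.34 and 6.72, near the lower end of the scale. Log2 P90/P30 was -0.32, 0.38, -1.05 and -0.20 (mean -0.30 ± 0.59, SD, n = 4; limma adjusted p = 0.771). The other probe of Cx3cr1 (A_51_P350853) stayed between -0.11 and 0.084 on all 4 arrays, with a mean of -0.0088 ± 0.079.

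Cd14, the co-receptor that hands lipopolysaccharide to TLR4, ran the opposite way. Its levels were 11.35, 10.70, 11.43 and 11.64 in P90 RNAs, against 10.76, 11.42, 11.08 and 11.08 in P30 RNAs. P90 exceeded P30 on a, e and k and lay below it on b, and the ages overlapped. Log2 P90/P30 of Cd14 was 0.59, -0.73, 0.35 and 0.56 (mean 0.19 ± 0.62, SD, n = 4; limma adjusted p = 0.876). Of all genes tested, 14.3% were above 0 on a, e and k and below 0 on b. In every one of the 11 member probes tested the levels at P90 and P30 overlapped, and in 2.46% of all probes tested they did not.

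Without array b most members' ratios lay further from 0. An unadjusted limma p below 0.05 was reached by 0 of the 11 probes with array a, e or k left out. With array b left out it was reached by 6 of the 11, against 23.1% of all probes tested. After adjustment 0 of the 11 and 0% of all probes then passed. Adgre1 was then at -1.69 (limma adjusted p = 0.0811), or 0.310 of the P30 level, C1qc at -1.29 (0.119), C1qa at -1.17 (0.104) and Csf1r at -1.12 (0.115). Mrc1 was at -0.80 (limma adjusted p = 0.113) and Cd14 at 0.50 (0.120). C1qb and Lyz2, at -0.27 and -0.36, had unadjusted limma p-values of 0.0782 and 0.126. The brighter Cx3cr1 probe was at -0.52 (limma adjusted p = 0.221), while the dimmer one, at 0.024, and the Csf1r probe A_52_P602091, at -0.14, changed sign. With the sign of array b turned against its label, 9 of the 11 had an unadjusted p below 0.05, against 24.5% of all probes, and none passed after adjustment. The lowest limma adjusted p of a member was then 0.0672, for Adgre1 at -1.69. Turning or leaving out an array that opposes the other 3 lowers the spread by construction. These p-values thus describe the dependence on array b and are not a test of its label. Over all alternatives the adjusted p of Adgre1 ran from 0.0672 to 0.999999. Arrays b, a and k share 1 dye orientation and array e has the other. The 8 members with the arrangement were counted by their signs on these arrays. That array e goes with a and k in them, and b does not, follows from that count.

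**Figure D3:**
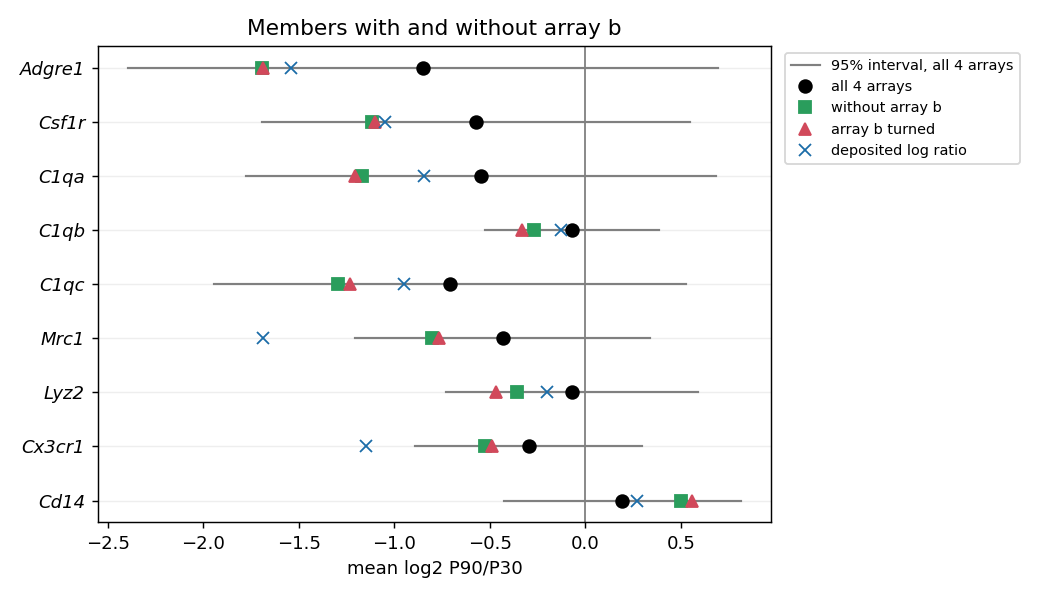
Mean log2 P90/P30 (x axis) of the 9 matched members over all 4 arrays with its 95% interval (grey line), without array b, with the sign of array b turned, and from the deposited log ratios. Every grey interval spans 0, and leaving out array b moves Adgre1 to -1.69, against -0.85 with all 4 arrays.

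Other macrophage genes were grouped by role, with 1 probe for each gene, and 0 genes of any list passed the limma test after adjustment, in either direction (0% of 20834 genes, and 7.9% before adjustment). Of 14 Fc receptors, integrins and signalling adaptors, 10 were below 0 on a, e and k and above 0 on b, with list medians of -0.68, 0.86, -0.27 and -0.23 for arrays a, b, e and k. Aif1, which encodes the macrophage protein Iba1, was at -1.30, 0.86, -0.69 and -1.42. The phosphatase gene Ptpn6 was at 0.40, 0.22, 0.41 and 0.44, the 1 gene of that list above 0 on every array, as were 6.14% of all genes tested. Its adjusted p in the limma fit across genes was 0.617. Of 15 scavenger and lectin receptors, 11 had the arrangement of the members, with medians of -0.77, 0.70, -0.54 and -0.40. Stab1, a scavenger receptor, was at -1.90, 1.45, -1.17 and -1.45, and Mertk, which binds dying cells for uptake, at -1.11, 0.53, -0.75 and -0.42. These counts stand beside 19.1% of all genes tested.

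The partners of the members were more mixed. Among 9 ligands and transcription factors around the CSF1 receptor, 3 had the arrangement. Chosen after its values were seen, the ligand gene Csf1 was at -1.32, 1.14, -0.49 and -1.21 on a, b, e and k, close to its receptor. Irf8, a transcription factor of monocytes and dendritic cells, averaged -0.24 ± 0.27 (SD, n = 4), and the GM-CSF receptor gene Csf2ra -0.24 ± 0.51. Of 15 complement genes beyond C1q, 6 had it. The factor B gene Cfb averaged 0.13 ± 0.34, and Calr, encoding calreticulin, 0.13 ± 0.38. Also chosen after their values were seen, C1ra, a protease that C1q carries, was at -1.0005, 1.07, -0.62 and -1.54, and the gene of its inhibitor, Serping1, at -1.63, 1.28, -1.01 and -1.29.

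Of 9 genes of the lipopolysaccharide receptor complex, 1 had the arrangement. The adaptor gene Myd88 averaged 0.039 ± 0.25 (SD, n = 4) and the kinase gene Irak1 -0.29 ± 0.18. Of 7 genes of fractalkine and monocyte recruitment 3 had it. Cx3cl1, the ligand of Cx3cr1, was above 0 on all 4 arrays at 0.85, 0.058, 1.42 and 0.012, opposite in sign to the brighter probe of its receptor on a, e and k, though on k it was near 0. The dimmer Cx3cr1 probe had the sign of Cx3cl1 on a and k. The adjusted p of Cx3cl1 in the limma fit across genes was 0.628. The monocyte surface gene Ly6c2 averaged 0.31 ± 1.21. Of 17 lysosome and phagosome genes 4 had the arrangement, with medians between -0.11 and 0.23. The cathepsin genes Ctss and Ctsb averaged -0.070 ± 0.83 and 0.082 ± 0.21, with Ctss saturated in the P30 channel on 2 arrays.

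Markers of connective tissue and vessels had the same arrangement as the members. All 8 fibroblast and matrix markers were measured, and 7 of them were below 0 on a, e and k and above 0 on b. Their mean log2 level ran from 8.20 to 11.16 over the P90 RNAs, against 9.62 to 12.49 over the P30 RNAs. The collagen gene Col3a1 was at -4.41, 1.37, -2.36 and -4.41 on a, b, e and k, a wider range than that of any member. All 8 endothelial markers were measured and 7 had the arrangement, with mean levels from 7.17 to 8.67 at P90, against 7.61 to 9.26 at P30. Plvap, of fenestrated capillaries, was at -1.34, 1.54, -1.0017 and -1.52. The 9 members themselves averaged from 7.64 to 8.72 at P90, against 7.77 to 9.31 at P30. The part of connective tissue and vessels in the members' values was not tested.

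Among markers of other leukocytes, the arrangement was shown by 0 of 4 neutrophil, 0 of 4 dendritic cell, 0 of 8 T and NK cell and 0 of 7 B and plasma cell markers tested. The neutrophil and dendritic cell markers tested were dim, with mean levels from 6.36 to 7.10 and from 6.45 to 6.75 at P90. The offset draws such ratios towards 0, so the lack of the arrangement in these 2 lists is uncertain. Of 10 neutrophil markers 4 passed the filter on dim probes, the brightest being S100a9, at 0.41, -0.21, 2.02 and 0.94, and Mpo, at 0.28, -0.31, 0.081 and 0.074. The plasma cell gene Jchain was at -0.55, 3.07, 1.69 and -2.23, and the lymphocyte surface gene Thy1 at -0.97, 0.81, 0.0072 and -0.59. Nkg7, of NK and cytotoxic T cells, was at -0.19, 0.29, 0.21 and 1.23. The mean was above 0 for 7 of the 8 T and NK markers, Thy1 being the exception. T and NK markers had medians of -0.24, 0.62, 0.19 and 0.61, so that array b was above 0 for them as for the members. The arrangement was shown by 0 of 7 adipocyte, 1 of 6 smooth muscle, 2 of 8 colonic epithelium and 0 of 3 erythrocyte markers. The epithelium list includes the saturated Krt8 and Lgals4, which give no usable ratio. Adipocyte markers had medians of 0.056, 2.35, 5.46 and 0.57, with array e highest. The brightest dendritic cell marker, Xcr1, was at -0.055, -0.60, 0.52 and 0.023, and the receptor gene Flt3 at 0.27, 0.026, 0.21 and 0.021. Of the 4 dendritic cell markers, 2 had a mean above 0 and 2 a mean below 0.

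Without array b, the median of the means of each list was -0.80 for the members (8 of 9 below 0), against -0.0062 for all genes tested. It was -3.06 for fibroblast markers, -1.06 for endothelial markers, -0.55 for scavenger receptors and -0.36 for Fc receptors and adaptors. The other macrophage lists lay at -0.35 (CSF1 receptor ligands and transcription factors), -0.29 (fractalkine and recruitment), -0.11 (lipopolysaccharide receptor), -0.086 (complement) and -0.018 (lysosome). Lists of other cells lay at 0.091 (neutrophil), 0.17 (dendritic cell), 0.24 (T and NK cell), 0.013 (B and plasma cell), 2.08 (adipocyte), 0.12 (smooth muscle), 0.021 (epithelium, with saturated spots included) and -0.59 (erythrocyte). Of the partner genes given above as means, Ly6c2 was at 0.80 ± 0.88, Csf2ra at -0.43 ± 0.41, Irf8 at -0.31 ± 0.29, Irak1 at -0.26 ± 0.21 and Ctss at -0.18 ± 0.98 (SD, n = 3). Cfb was at 0.30 ± 0.087, Myd88 at 0.15 ± 0.14 and Calr at 0.086 ± 0.45, and Ctsb, at -0.016 ± 0.11, changed sign. The list values without array b were computed after the data had been seen.

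**Figure D4:**
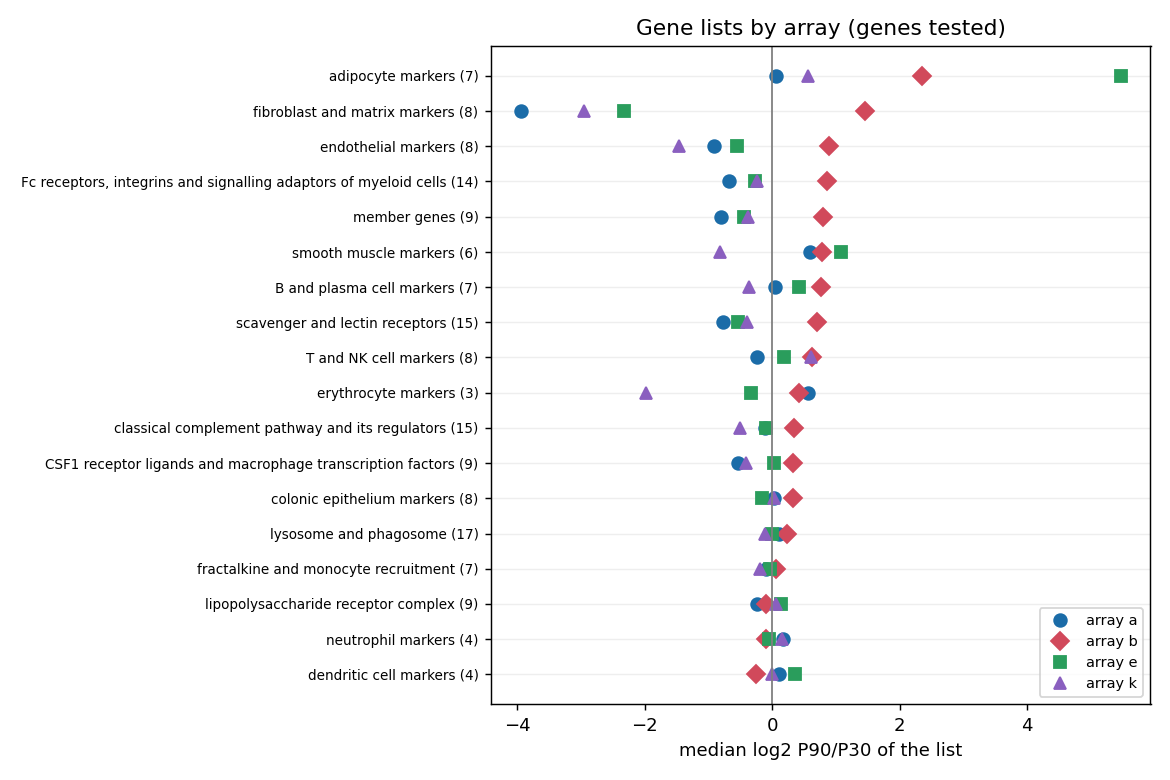
Median log2 P90/P30 (x axis) of each gene list on arrays a, b, e and k, with the number of genes tested in brackets and lists ordered by their value on array b. Above 0 for array b and below it for the others lie the member, Fc receptor, scavenger receptor, complement, fractalkine, fibroblast and endothelial lists. The dim dendritic cell and neutrophil markers lie within 0.37 of 0 on every array, as do the fractalkine, lipopolysaccharide receptor, lysosome and epithelium lists. The epithelium medians on arrays b and e lie at the values of saturated spots and do not measure a change.

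The genes most like C1q over the 4 arrays were found among 13904 symbols that are not members, by the root mean square difference from the mean profile of C1qa, C1qb and C1qc (-1.11, 0.96, -0.33 and -1.29). They were Arhgef17 (0.12), Acap2 (0.12), Picalm (0.13), Cygb (0.14) and Sphk1 (0.15), in log2 units over 4 arrays. For Cd14 the closest were Rab43 (0.053), Slc35a4 (0.072), Tpgs1 (0.11), Ndrg2 (0.11) and Fads2 (0.12). With 4 arrays, these values only describe likeness.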

How the data were processed

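Deposited scanner values are median spot and local background intensity, linear and not normalized per the file headers. Deposited processed signals had background removed and 1 linear factor per dye; the log10 ratio the authors deposited sets their Cy5 over their Cy3 signal. Outlier, background and saturation marks (other) also come from the deposited files. Feature Extraction was 10.5.1.1 per the file headers, but 8.5.1.1 per the submitters' processing notes. The deposited value table holds log2 P90/P30, equal within 0.01 to the turned log ratio for 80.0% to 87.0% of probes. Its column medians were 0.21, -0.17, 0.049 and 0.17 (a, b, e, k), and its centring is not given in the sources used here.

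In limma 3.58.1 (R 4.3.3), median signals went through normexp with an offset of 50 and within-array loess with a span of 0.3, where control spots had no weight. Outlier spots were dropped and array e was turned to P90 over P30. Probes had to be well above background on at least 3 arrays in the P90 or the P30 channel (27065 of 41174). Their mean ratios were tested against 0 with lmFit and eBayes, adjusted by Benjamini-Hochberg over all of them, with a threshold of 0.05. The fit was tested on simulated data, where it called 30% of probes at a log2 change of 1 and 73% at 2. Changes of that size can thus be missed. Levels are channel log2 intensities after loess and Aquantile; they include the offset and are open to dye bias, since 1 array of 4 has exchanged dyes. The 4 arrays lay on 1 slide, which leaves no batch to test. Alternatives changed the background correction, normalization, filter, model and arrays.

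RefSeq accessions (GRCm38.p6) named 25097 probes; array positions are of another build and are not printed. Members and lists were chosen with earlier results of these data known. All members are named, and in other lists the 2 genes of highest mean intensity or fewer; Csf1, C1ra, Serping1 and Lyz1 were chosen after their values were seen. Proteins are not used here.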

Additional observations from a re-analysis of the deposited data

Results flagged for a closer look

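C1qb on array b had a log2 P90/P30 of 0.53, far from the other arrays, which lay between -0.34 and -0.20. C1qa in the P30 RNA of array b had a normalized log2 level of 7.80, far from the P30 levels of arrays a, e and k, which lay between 9.13 and 9.40. These 2 were found among 39 groups of 4 values (ratios, P90 levels and P30 levels of 13 probes), and chance marks about 1 in 20 groups. Both concern array b.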

How the results depend on the processing

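Of 193 member values under 18 alternatives, 176 kept their direction and stayed short of the threshold, 17 changed sign and 0 passed the threshold. Changing the filter, taking 1 probe for each gene, leaving out saturated spots and adding an intensity trend could not change a member's mean ratio. The value table nearly repeats the deposited log ratio. The count of kept directions thus includes values that were the same by construction. Adgre1, C1qa, C1qc, Cd14, Mrc1, the brighter Csf1r probe and the brighter Cx3cr1 probe kept their sign throughout. The dim Cx3cr1 probe (A_51_P350853) changed sign to 0.034 with no background correction, 0.30 with processed signals, 0.25 with the deposited log ratio and 0.25 with the value table, 0.35 with median centring, 0.011 with array weights and 0.044 with array b turned. The Csf1r probe A_52_P602091 changed to -0.061 with processed signals, -0.12 with the deposited log ratio and -0.12 with the value table, -0.067 with array weights and -0.28 with array b turned. Lyz2 was at 0.061 with median centring, and leaving out 1 array gave it -0.36 (without b) to 0.19 (without e). Leaving out 1 array gave C1qb -0.27 (without b) to 0.020 (without a), the dim Cx3cr1 probe -0.040 (without a) to 0.024 (without b) and the Csf1r probe A_52_P602091 -0.14 (without b) to 0.20 (without a). The cause was not tested. The median of the member probes was -0.85 with the deposited log ratio and -0.85 with the value table, against -0.30 as reported, and it was -0.49 with the smaller normexp offset of 10. Leaving out 1 array gave medians from -0.52 (without b) to -0.045 (without e). Over all probes, 3 were called with the offset of 10, 3 with processed signals, 3 with the deposited log ratio, 3 with the value table and 1 with median centring, and none of these is a member. The reported test is itself paired, since each ratio sets the P90 RNA of an array against its P30 RNA, so no further replicate block was added. Brightness over background limits the values of Mrc1, Cx3cr1 and the dim probes of Csf1r and Adgre1. It also limits the P90 values of brighter probes on arrays a and k, where median P90 backgrounds were 42 and 39. Raw P90 signals there were 94 and 76 for the brighter Adgre1 probe. They were 93 and 92.5 for the brightest Csf1r probe, and 71 and 77 for Lyz2. All of these were still marked well above background.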
